A study of Mus musculus with 6 samples.

Results

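TFIID is the general transcription factor that recognises core promoters and nucleates assembly of RNA polymerase II. The genes of 10 of its subunits are described here as sites in maps of TAF4b binding and of H3K4me3 in male germ cells of the fetal mouse. They are Tbp, Taf1, Taf2, Taf4, Taf4b, Taf5, Taf6, Taf7, Taf9 and Taf12, chosen by name but with earlier results of these data known. The 4 lists used name 32411 genes in all, 8 of the 10 among them, while Taf4 and Taf9 have no row of their own and are described by position. A row of a list was taken for a gene when the transcript in its annotation, or the transcript with the nearest promoter, belonged to that gene. This gave 8 rows in TAF4b replicate 1, 2 rows in TAF4b replicate 2, 11 rows in H3K4me3 replicate 1 and 0 rows in H3K4me3 replicate 2.

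The maps were made by CUT&RUN, in which an antibody directs a nuclease to its target in nuclei and the released fragments are sequenced. The cells were prospermatogonia, labelled as male, C57BL/6, Taf4b-wildtype and E16.5. Per the labels' protocols, the parents of all embryos carried an Oct4-EGFP transgene on both alleles (B6;129S4-Pou5f1tm2Jae/J), which marks germ cells, and living gonad cells were sorted into fractions with and without GFP. No treatment is named, and which fraction was used is not given beyond the cell type label. How many embryos were pooled for a library, and whether the replicates came from separate pools, is not given in the sources used here. Each antibody (TAF4b, H3K4me3 and the control IgG) had 2 libraries, and the IgG libraries were not analysed here. No background could therefore be set beside the peaks, and levels were not compared between lists, since the score that ranks the intervals has no stated normalization.

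In TFIID, TBP bends the DNA at the core promoter while the TBP-associated factors (TAFs) contact flanking promoter DNA, modified histones and activators. Several TAFs pair through histone folds, among them TAF4 or TAF4b with TAF12 and TAF6 with TAF9. TAF4b is a paralogue of TAF4 that is enriched in the gonads, and mice without it lose germ cells in both sexes. H3K4me3, the other antigen, is deposited around active start sites, and TAF3 binds it through a PHD finger.

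The lists differed greatly in size, which sets what can be found in them. TAF4b replicate 1 held 7861 peaks and replicate 2 held 848, while H3K4me3 replicate 1 held 64891 regions and replicate 2 held 1730. The sequencing depth of these libraries is unknown, and a missing interval cannot be told apart from too few reads. In TAF4b replicate 1 a promoter peak was listed for 7 of 10 germ cell markers (Ddx4, Dazl, Dnd1, Mael, Tdrd9, Piwil2 and Sall4) and for 0 of 10 markers of the somatic testis. The highest score was 23.3, at Dazl and Tdrd9, and the germ cell markers without a peak were Nanos2, Nanos3 and Pou5f1. With peaks within 500 bp of any start, or with a deposited distance within 1000 bp (23.9% of all protein-coding genes), Nr5a1 made the somatic count 1 of 10. In replicate 2 the counts were 0 and 0. Over all protein-coding genes the shares were 22.7% and 3.14%. In H3K4me3 replicate 1 the counts were 5 (Ddx4, Dazl, Mael, Piwil2 and Sall4) and 4 (Sox9, Gata4, Wt1 and Insl3), both near the 44.0% of all protein-coding genes. Counting regions within 500 bp of any start, they were 7 and 7, with Nr5a1, Pecam1 and Ptprc added to the somatic ones, against 70.7% of protein-coding genes. With a deposited distance within 1000 bp they were 8 and 5, against 62.0%. The part of other cells in the results below was not tested.

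TAF4b peaks were found at most TFIID promoters in the larger list. Replicate 1 had a promoter peak, meaning a peak of the authors' class promoter-TSS, at 6 of the 10 genes: Tbp, Taf1, Taf2, Taf4b, Taf5 and Taf7. Over all 21751 protein-coding genes the share was 22.7%, and over the 9570 of them with an H3K4me3 promoter region in replicate 1 it was 37.9%. Replicate 2 had a promoter peak at 1 of the 10, Taf1, where the share over all protein-coding genes was 3.14% and over those with an H3K4me3 promoter region 5.5%. H3K4me3 promoter regions of replicate 1 were named for 7 of the 10, the same 6 genes and Taf6, against 44.0% of protein-coding genes. H3K4me3 replicate 2 had none of the 10, against 4.14% of protein-coding genes.

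That class is given to 1 transcript per interval, so a promoter shared with a neighbouring gene can be credited to the neighbour. Counting instead every interval that reached within 500 bp of any annotated start of a gene added Taf4 and Taf9 to the TAF4b list of replicate 1, for 8 of 10, against 28.2% of protein-coding genes. The genes left without a TAF4b peak were Taf6 and Taf12. In TAF4b replicate 2 the count stayed at 1 of 10, against 4.08%. For H3K4me3 replicate 1 the count was 8 of 10 against 70.7%, with Taf9 and Taf12 added and Taf4b lost, because neither H3K4me3 region at Taf4b reached within 500 bp of a start. In H3K4me3 replicate 2 it was 0 of 10 against 7.0%. The H3K4me3 counts therefore lie nearer to the share over all genes than the TAF4b counts of replicate 1 do.

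By the promoter class and with the full lists, the number of TFIID genes with a promoter interval did not differ between antibodies on average. It was 6 and 1 for TAF4b, a mean of 3.5 ± 3.54 (SD, n = 2), and 7 and 0 for H3K4me3, a mean of 3.5 ± 4.95 (SD, n = 2). The difference was 0, with an exact two-sided permutation p of 1. The smallest p that 2 libraries against 2 allow is 0.333, so this design could not have shown a difference.

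The peak sequences below show what the TAF4b antibody recovered at 4 promoters that differ in neighbours. Tbp and Taf5 held a GC box alone, Taf4 a CCAAT box alone, and Taf1 both. They were read from the GRCm39 genome on the strand of the gene, 5′ to 3′, and only the part outside protein-coding exons is printed. Capitals mark matches, on either strand, to GC boxes and CCAAT boxes. The Tbp part spans chr17:15720023-15720149, that of Taf1 chrX:100576130-100576272, that of Taf5 chr19:47056055-47056160 and that of Taf4 chr2:179618616-179618758, the last on the minus strand.
Tbp: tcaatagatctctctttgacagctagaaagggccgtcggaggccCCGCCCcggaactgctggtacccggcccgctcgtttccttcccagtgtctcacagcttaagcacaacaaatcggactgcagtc
Taf1: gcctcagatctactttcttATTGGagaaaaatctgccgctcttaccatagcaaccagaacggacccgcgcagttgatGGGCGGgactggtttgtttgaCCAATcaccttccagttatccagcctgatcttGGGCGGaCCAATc
Taf5: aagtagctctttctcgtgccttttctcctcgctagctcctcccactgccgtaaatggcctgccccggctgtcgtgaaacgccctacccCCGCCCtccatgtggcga
Taf4: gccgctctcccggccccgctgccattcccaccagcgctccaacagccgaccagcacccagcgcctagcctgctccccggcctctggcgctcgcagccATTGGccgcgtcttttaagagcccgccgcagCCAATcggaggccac

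Tbp encodes the TATA-binding protein itself. Its TAF4b peak in replicate 1 (chr17:15720023-15720165) had a score of 19.9, rank 2358 of 7861, and a deposited distance of 56 bp upstream of the start. The peak ran from 127 bp before to 15 bp after the canonical start, and so overlapped 16 bp of exon 1. It lay whole within an H3K4me3 region of 2534 bp with a score of 143.1, rank 3197 of 64891, a width that 1.8% of the regions in that list reached. The gene for the proteasome subunit Psmb1 is transcribed away from Tbp, with annotated starts 137 to 1621 bp upstream, and the nearest promoter of the H3K4me3 region was given as that of Psmb1. One wide H3K4me3 region thus covered both starts. The TAF4b peak overlapped the Tbp start and began 127 bp upstream of it, close to the Psmb1 start at 137 bp, so which of the 2 genes it belongs to cannot be told apart. In TAF4b replicate 2 the nearest peak was 326777 bp from the Tbp start.

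Taf1 encodes the largest TAF, which forms the scaffold that holds TBP and reads acetylated histones. It was the member with a TAF4b promoter peak in both lists. The replicate 1 peak (chrX:100576130-100576272) had a score of 17.9, rank 2865 of 7861, and the replicate 2 peak (chrX:100576113-100576301) had a score of 44.5, rank 729 of 848. The replicate 1 peak lay whole inside the replicate 2 peak, with 143 bp shared, and their centres were 78 and 72 bp upstream of the canonical start. Both ranks are modest, and that of replicate 2 falls in the lower-scoring part of its list. The H3K4me3 region of replicate 1 (chrX:100576103-100576603) had a score of 22.4, rank 57327 of 64891. It contained both TAF4b peaks and was the lowest-scoring H3K4me3 interval among the TFIID genes.

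The Taf1 sequence printed above has 3 matches to the CCAAT box and 2 to the GC box. At least 3 CCAAT matches were found in 3.61% of the 5756 TAF4b promoter peaks of replicate 1, and in 13.6% of the 748 longer peaks of replicate 2. This count was looked at after the sequence had been read.

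Taf2 encodes a TAF that contacts DNA downstream of the start. Its TAF4b peak in replicate 1 (chr15:54935444-54935586) had a score of 12.9, rank 4578 of 7861, the lowest among the TFIID promoter peaks. Its centre was 33 bp downstream of the start, and it was the only one of the 6 promoter peaks with its centre downstream. An H3K4me3 region of 625 bp (score 53.7, rank 27088) covered it whole. A further H3K4me3 region whose nearest promoter was that of another Taf2 transcript (chr15:54868958-54870060, score 74.5, rank 16972) was intergenic, 16669 bp past that start, and held no TAF4b peak. The TAF4b signal named for Taf2 was thus at its main start alone.

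Taf5, a WD40-repeat protein of the TFIID core, had the highest TAF4b promoter score after Taf4b. The peak (chr19:47056055-47056197) scored 27.3, rank 1001 of 7861, with a deposited distance of 59 bp upstream. It lay in an H3K4me3 region of 629 bp (score 40.2, rank 36935), and a second region of 627 bp (score 56.6, rank 25323) of the class intron began 661 bp beyond the peak. The noncoding gene Gm59282 starts 52 bp upstream on the opposite strand, inside the peak. The H3K4me3 signal at Taf5 was therefore listed as separate regions on the upstream and downstream sides, with the TAF4b peak in the upstream one.

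Taf4, the broadly expressed counterpart of Taf4b, had no row by name in any of the 4 lists. A TAF4b peak in replicate 1 (chr2:179618616-179618758, score 17.4, rank 3016 of 7861) was nevertheless centred 248 bp upstream of the canonical Taf4 start. The authors' annotation gave it to 4921531C22Rik, a noncoding gene on the opposite strand with a start 154 bp upstream of Taf4, at a deposited distance of 41 bp downstream. The peak was outside all H3K4me3 regions, and the nearest one lay 1357 bp away, in the direction of Taf4 transcription. Which of these start sites the peak belongs to cannot be told apart from the lists.

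Taf6 and Taf9 encode a histone-fold pair of the core, and they differed in the lists. At Taf6 no TAF4b peak was listed nearby in either replicate, the nearest being 31369 bp (replicate 1) and 15314 bp (replicate 2) from the start. Its H3K4me3 region (chr5:138184719-138186470) was nonetheless among the wider and higher ones, at 1751 bp with a score of 114.8, rank 6587 of 64891, and also spanned the starts of Cnpy4, 208 and 283 bp upstream on the opposite strand. At Taf9 a TAF4b peak of replicate 1 (chr13:100787600-100787742, score 16.4, rank 3311 of 7861) was centred 428 bp upstream of the canonical start. It was annotated to Ak6, with Rad17 as the nearest promoter. Ak6 shares the strand and the start region of Taf9 and Rad17 is transcribed from the opposite strand, with annotated starts up to 612 and 666 bp upstream of that of Taf9. An H3K4me3 region of 1208 bp (score 68.6, rank 19398), also annotated to Ak6, held the peak whole and ended 7 bp short of the canonical Taf9 start. The peak at Taf9 is thus one in a promoter region shared by 3 genes.

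Taf12, the histone-fold partner of TAF4 and TAF4b, had the highest H3K4me3 score of the 10 genes and no TAF4b peak. The region (chr4:132001032-132002766) scored 192.3, rank 915 of 64891, was 1734 bp wide and reached from -654 to 1080 bp relative to the canonical start. Its class was intron, with its centre 213 bp past that start, so it is not in the H3K4me3 promoter count. The noncoding gene Gm57101 starts 30 and 57 bp upstream on the opposite strand. The nearest TAF4b peaks lay 12749 bp (replicate 1) and 225101 bp (replicate 2) away. The next highest H3K4me3 scores at TFIID starts were those of Tbp (143.1), which had a TAF4b peak, and of Taf6 (114.8), which had none.

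Taf7 encodes a subunit that binds TAF1 and restrains its acetyltransferase activity. Its TAF4b peak in replicate 1 (chr18:37777245-37777387) had a score of 16.9, rank 3159 of 7861, 59 bp upstream by the deposited distance. An H3K4me3 region of 1374 bp (score 89.4, rank 12045) covered it whole, and the nearest peak of replicate 2 was 1083807 bp from the start. The noncoding gene 3222401L13Rik starts 119 bp downstream on the opposite strand. Its score equalled the median of all promoter peaks in the list, 16.9.

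**Figure D1:**
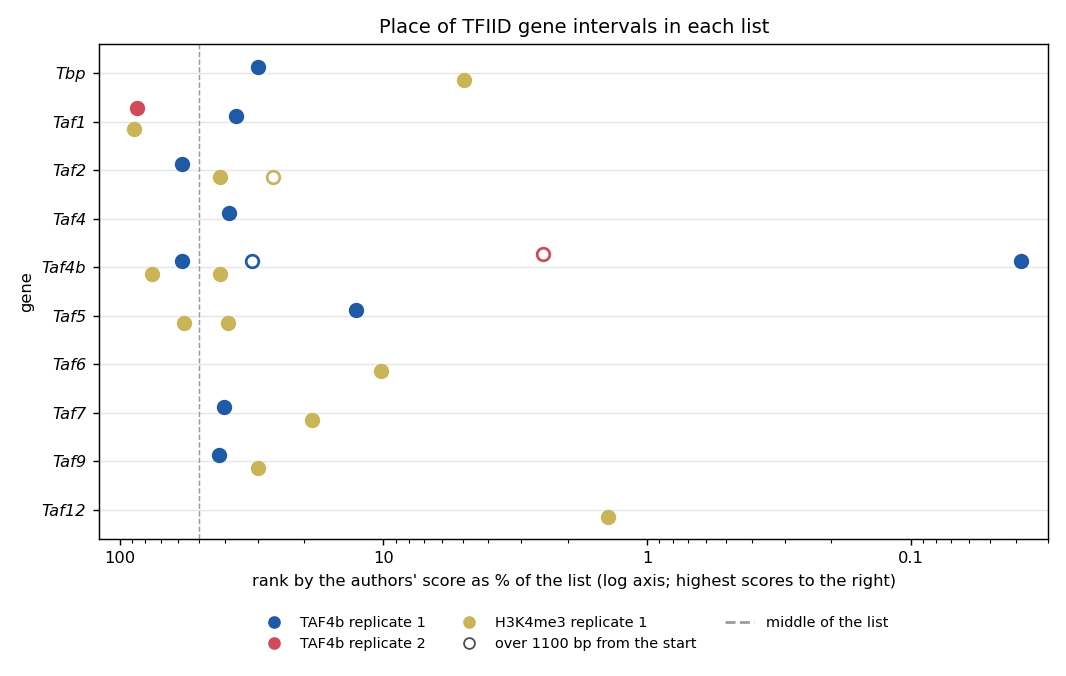
Rank of each interval of a TFIID gene by the authors' score, as a percentage of its list on a log axis, with the highest scores to the right. Blue is TAF4b replicate 1, red TAF4b replicate 2 and sand H3K4me3 replicate 1, open circles are intervals over 1100 bp from the canonical start, and the dashed line is the middle of a list. The Taf4b promoter peak stands at 0.0382% of TAF4b replicate 1, and the other TAF4b promoter peaks of that list stand between 12.7% and 58.2%.

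Taf4b was the member with most TAF4b intervals. Its promoter peak in replicate 1 (chr18:14916068-14916210) had a score of 71.5, rank 3 of 7861, which was 4.23 times the median of all promoter peaks, 2.62 times the score at Taf5 and 5.54 times that at Taf2. Without Taf4b the scores of the TFIID promoter peaks ran from 12.9 to 27.3, around the median of 16.9 for all promoter peaks, so Taf4b alone stood at the top of the list. The higher-ranked peaks were annotated to a transcript on the unplaced scaffold JH584304.1 (score 266.5) and to Gm28439 (73.5), and the next lower to Ensa (66.5) and Hnrnpl (64.5). The deposited distance of the Taf4b peak was 163 bp upstream, and the canonical GENCODE start lay 89 bp from its centre.

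The Taf4b promoter peak had no counterpart in the smaller list. Of the 99 promoter peaks ranked 100 or better in replicate 1, 68 (68.7%) overlapped a peak of replicate 2, compared with 10.6% of all 5756 promoter peaks. The Taf4b promoter peak did not, and neither did those on JH584304.1 and at Hnrnpl, so 3 of the 5 highest-ranked promoter peaks had no counterpart. It was also outside the H3K4me3 regions of replicate 1. The flanking regions ended 482 bp before it (chr18:14915085-14915585, score 28.3) and began 636 bp after it (chr18:14916847-14917486, score 53.7). Of all promoter peaks in that list 13.7% lay outside H3K4me3 regions, and 3.93% lay outside with a region within 1000 bp on both sides, as at Taf4b. A weaker TAF4b peak with a score of 12.9 (chr18:14916827-14916969) lay whole within the first exon of Taf4b and shared 123 bp with the downstream H3K4me3 region.

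The Taf4b gene also carried a TAF4b peak in both lists, but deep inside the gene. In replicate 1 it lay at chr18:14968791-14968933 with a score of 19.4, rank 2480 of 7861, and in replicate 2 at chr18:14968726-14968914 with a score of 178.1, rank 21 of 848. The peaks shared 124 bp and were centred 52634 and 52592 bp downstream of the canonical start. They overlapped coding exon 11 (14968849 to 14968979) by 85 and 66 bp, and the authors classed them as exon and intron of Taf4b. The nearest promoter was that of Gm21055, 5137 and 5095 bp away. With its score in replicate 2 the exon 11 site ranked far above Taf1, at 2.93 times the median of its list, whereas in replicate 1 it was 1.3 times the median. With these, 3 peaks of replicate 1 carried Taf4b in their annotation, a number reached by 0.806% of the 6201 genes so named.

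Few other TAF4b peaks away from start sites were found in both lists and outside H3K4me3. Of 81 replicate 2 peaks over 1000 bp from a start, 41 overlapped a replicate 1 peak, and 38 of these lay in an H3K4me3 region of replicate 1. The exon 11 peak was 1 of the 3 that did not, and the other 2 were intergenic. Its replicate 2 score of 178.1 was the highest of the 41, against a median of 56.7 and a second highest of 117.4. Among all 81 it was the 6th highest, and the 5 above it, from 214.6 to 327.9, overlapped no replicate 1 peak. One of these, at Lars2 (score 251.0, focus ratio 0.914), also touched a protein-coding exon outside H3K4me3 regions. The nearest H3K4me3 regions were 51304 and 105030 bp away from the replicate 1 peak. Its GC content was 37.8% in replicate 1 and 38.1% in replicate 2, where the median over promoter peaks was 64.3% and 63.0%. For other peaks away from start sites the GC content was not computed. All 113 and 159 of its runs of 31 bases occurred once in the genome, as did those of every other TAF4b peak at a TFIID gene. The focus ratio given in the TAF4b lists was 0.726 and 0.885, and 10.1% and 0.943% of the peaks in the lists reached these values. These comparisons were chosen after the values were seen. Whether the exon 11 fragments came from chromatin bound by TAF4b or from other DNA with the Taf4b sequence, such as an amplified fragment, was not tested, and the IgG libraries that bear on it were not analysed here. The score, the rank and the number of peaks named for Taf4b carry that limit.

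**Figure D2:**
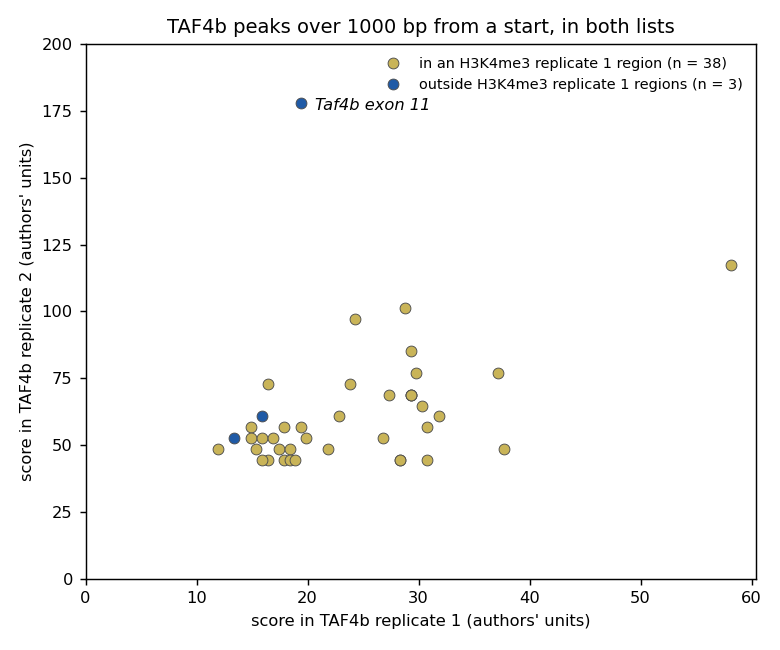
Scores of the 41 TAF4b peaks of replicate 2 that lay over 1000 bp from a start and overlapped a peak of replicate 1, with the replicate 1 score on the x axis and the replicate 2 score on the y axis, both in the authors' units, which are not comparable between the lists. Sand points lie in an H3K4me3 region of replicate 1 (38) and blue points do not (3). Taf4b exon 11 has the highest replicate 2 score, 178.1, with a replicate 1 score of 19.4.

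In position the TFIID promoter peaks lay close to the median of the list. The median deposited distance of the 6 peaks was 59 bp upstream, from 163 bp upstream to 33 bp downstream, and 5 of 6 lay upstream. Over all 5756 promoter peaks of replicate 1 the median was 51 bp upstream, with 80.8% upstream. In replicate 2 the Taf1 peak lay 133 bp upstream by the deposited distance and the median over 748 peaks was 72 bp upstream. The 7 H3K4me3 promoter regions had a median of 199 bp upstream, from 967 bp upstream at Taf4b to 126 bp downstream at Taf2, against 38 bp upstream over 13454 regions. Their median score was 53.7 and their median width 629 bp, against 77.5 and 1197 bp for all H3K4me3 promoter regions. Over the 8 regions within 500 bp of a TFIID start, which take in Taf9 and Taf12 and leave out Taf4b, the medians were 79.0 and 1291 bp, against 82.0 and 1263 bp at all protein-coding genes, so the lower values rest on the promoter class. This second count was chosen after seeing the data. Of the 6 TAF4b promoter peaks of replicate 1, 5 lay whole within an H3K4me3 region of the same replicate, and Taf4b was the exception, where 13.7% of all promoter peaks lay outside. The count of peaks within an H3K4me3 region was 2 with the higher-scoring 50% of each list and 0 against the smaller H3K4me3 list of replicate 2. The share over all promoter peaks was not computed in these settings, so the lower counts are not a result about the TFIID genes. No test was made on these medians, because the genes are not replicates.

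Sequence motifs were searched within the whole peak interval on both strands, overlapping matches included. The GC box (GGGCGG), bound by SP and KLF factors, was present in 5 of the 6 TFIID promoter peaks of replicate 1 and missing from Taf7, against 56.9% of all promoter peaks of the list. The CCAAT box, bound by NF-Y, was present at Taf1 and Taf4b, against 37.9%, and also in the peak upstream of Taf4. The cyclic AMP response element (TGACGTCA) was present at Taf2 and Taf4b, against 4.45%. The E-box (CACGTG) was present at Taf4b, against 7.24%, and the ETS core (CCGGAAG) at Taf7, against 13.6%. The Taf4b promoter peak thus held 4 of the 8 motifs, more than any other TFIID peak, and its exon 11 peak held 0. The TATA box (TATAAA) was in none of the 6, against 1.74% of the list, and neither were the NRF1 core (GCATGCGC, 4.27%) or the YY1 core (AAGATGGC, 1.93%). A match is a run of letters and not a bound site.

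Other genes of the transcription machinery also had TAF4b promoter peaks in replicate 1, where the share was 22.7% over all protein-coding genes and 37.9% over those with an H3K4me3 promoter region. Of 5 further TFIID subunits (Taf3, Taf8, Taf10, Taf11 and Taf13), 4 had a TAF4b promoter peak, all but Taf11, which gained one when intervals within 500 bp of any start were counted. The highest of them was at Taf13, with a score of 23.8, rank 1535 of 7861. Of 6 paralogues 3 had a peak, led by Taf6l, a subunit of the SAGA coactivator, with 21.3. The germ cell gene Taf7l had a peak with 10.4, and Tbpl1 and Tbpl2, which encode TBP-like proteins, had none. Of 7 factors of other TBP complexes 4 had a peak, led by Taf1c of the RNA polymerase I factor SL1 with 16.4. Of 17 general factors that assemble with TFIID 11 had a peak, led by the TFIIH subunit gene Gtf2h4 with 27.3, rank 1001. With the higher-scoring 50% of the list the last counts fell to 1 of 7 and 7 of 17. The share over all protein-coding genes was not computed at that cut, so these falls cannot be set against it.

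In TAF4b replicate 2 none of these further genes had a promoter peak, against 3.14% of all protein-coding genes. Among them and the 10 TFIID genes, Taf1 was the only one with a TAF4b interval of the class promoter-TSS in both replicates, as had 2.7% of all protein-coding genes. When intervals within 500 bp of any start were counted, Taf1d, of the RNA polymerase I factor SL1, also had one in both, against 3.53% of protein-coding genes. No gene list was tested against another, since the lists were chosen with earlier results known.

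**Figure D3:**
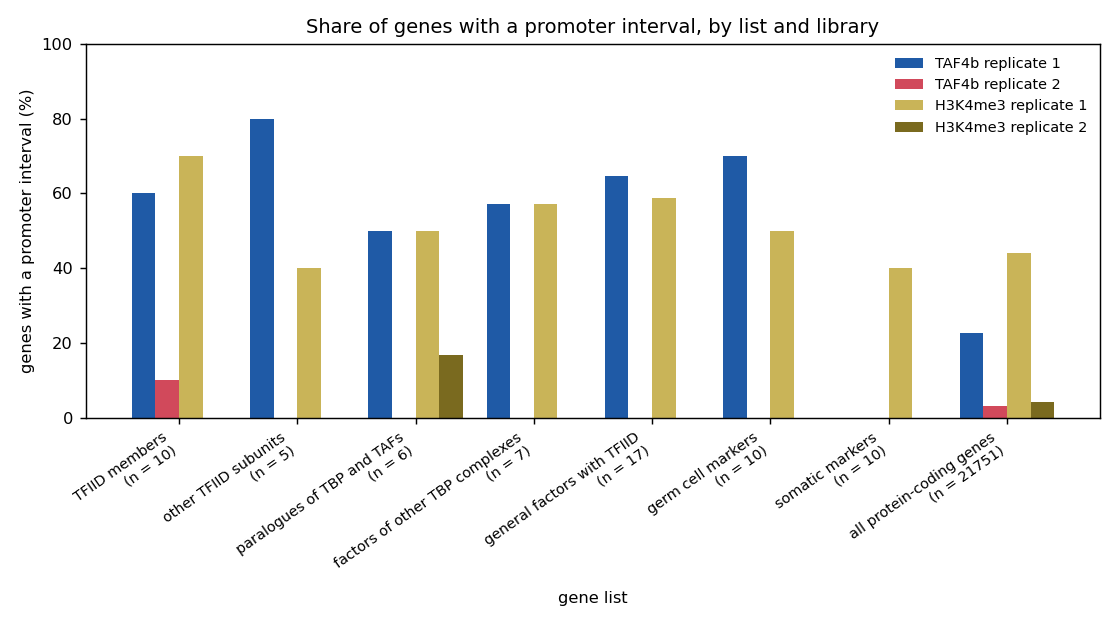
Percentage of the genes in each list with an interval of the class promoter-TSS, for the 4 libraries (blue TAF4b replicate 1, red TAF4b replicate 2, sand H3K4me3 replicate 1, brown H3K4me3 replicate 2), with the number of genes in the list under each name. In TAF4b replicate 1 the 5 lists of transcription factor genes stand between 50% and 80%, above the 22.7% of all protein-coding genes, and the somatic markers stand at 0%.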

How the data were processed

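CUT&RUN intervals from 4 libraries of sorted prospermatogonia were used: TAF4b and H3K4me3, 2 replicates each, grouped by sample title. Per the submitters' processing notes, reads were handled with Trim Galore 0.5.0, Bowtie2 2.3.0, SAMtools 1.9 and HOMER 4.10 on GRCm39. Per the file headers, the H3K4me3 regions were annotated with annotatePeaks.pl and the Ensembl 103 gene set. The peak calling command and threshold are not given in the sources used here. The peak score in the deposited lists has no stated normalization and was used to rank intervals (ties share the best rank) and for ratios and medians within a list, never to compare levels between lists. The focus ratio in the deposited TAF4b lists is a fraction from 0 to 1. Intervals were listed per library, not pooled.

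Transcripts were named through GENCODE M39, which matched 98.6% to 99.2% of the nearest-promoter identifiers, and distances to canonical starts were computed there on GRCm39. A promoter interval has the class promoter-TSS. Overlap means at least 1 bp. Sequences and runs of 31 bases were read from the GRCm39 genome, with searches tested on made sequences. Sequence from the chromosome that carries Taf4b and Taf7 is not printed. The 10 genes and the gene lists were chosen with earlier results of these data known. The genes named were the 10, the highest TAF4b replicate 1 gene of each other list and any gene with a peak in both replicates, opposite-strand neighbours within 1000 bp, and the genes ranked 1 to 5 in TAF4b replicate 1. Others (Ak6, Gm21055, Taf11, Taf7l, Tbpl1, Tbpl2, Taf1d, Lars2, Nr5a1 and the other marker genes) were named after their values were seen. The antibody comparison used an exact permutation test over libraries. Peaks and genes are not replicates, and each p-value is the share of relabellings of these libraries that gave at least the observed difference. Analyses used Python 3.11.15, pandas 2.3.3 and numpy 2.4.6.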

Additional observations from a re-analysis of the deposited data

How the results depend on the processing

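Alternatives were the promoter definition, the gene taken from the nearest promoter, the higher-scoring 50% of each list and equal list sizes. Others were the overlap, the reference start, the pairing by replicate number, and leaving out each replicate. Of 72 alternative values, 57 were called unchanged and 15 moved. Counts were called moved beyond a set ratio, and median distances beyond the SD between replicates, 52.3 bp. The main difference between antibodies was 0, so its alternatives could only be called unchanged, and those calls are no measure of stability. With replicate 1 lists reduced to the size of replicate 2, the number of the 10 genes with a promoter interval fell from 6 to 1 (Taf4b) for TAF4b and from 7 to 0 for H3K4me3. With the higher-scoring 50% it fell from 7 to 4 for H3K4me3 replicate 1, from 1 to 0 for TAF4b replicate 2, and from 5 to 2 for TAF4b promoter peaks inside H3K4me3 regions in replicate 1. Against the other H3K4me3 replicate that last count was 0 in replicate 1, and 1 in replicate 2, where it was 0. Taking the gene from the nearest promoter lowered H3K4me3 replicate 1 from 7 to 5, without Tbp and Taf1, which counted as unchanged. These counts were not made for all protein-coding genes or all promoter peaks, so no share stands beside them. The Taf1 peak of replicate 2 lay at -72 bp by the nearest annotated start and at -133 bp as deposited. List size fixes the first change, and the cause was not tested for the others. With the replicate block the difference between antibodies was again 0 (-1 and 1 within pairs, exact sign-flip p 1, smallest possible 0.5). It was 0.5 under both wider windows and in the higher-scoring 50%. With equal list sizes it was 1 (means 1 and 0), with an exact permutation p of 0.333, the smallest possible. Leaving out each replicate gave -1 to 1. Labels do not say what equal numbers share. The median H3K4me3 score and width by position, chosen after seeing the data, moved from 53.7 to 79.0 and from 629 to 1291 bp. For the other gene lists 31 values stayed and 5 moved: general factors from 11 to 7 and factors of other TBP complexes from 4 to 1 in the higher-scoring 50%, Taf1d in replicate 2, and the somatic gene Nr5a1 under both wider windows. A median distance for TAF4b replicate 2 in the higher-scoring 50% could not be computed, as none of the 10 genes was left. Unknown depth and the unanalysed IgG libraries limit every statement about a missing peak.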
